A study of Homo sapiens with 16 samples.

Results

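The 9 genes NFKBIA, TNFAIP3, CXCL8, CXCL1, CCL2, IL6, LIF, ICAM1 and IRF1, which belong to NF-kappaB signalling and the cytokine response, were followed across the deposited lists of peaks of RNA polymerase II (Pol II) and of topoisomerase II alpha (TOP2A). They were chosen by name, and each was read over its span in the hg19 genome with 2 kb before the start and 5 kb past the end, along its strand. The 9 windows held 46 of 87911 Pol II peaks in control, 39 of 85990 at 30 min of merbarone, 23 of 81816 at 1 h and 1 of 1840 TOP2A peaks. Pol II peaks lay at 6 of the 9 genes (NFKBIA, TNFAIP3, CCL2, IL6, LIF and IRF1). CXCL8, CXCL1 and ICAM1 had no peak in any list.

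The cells, hTERT RPE-1, are an epithelial line from human retinal pigment epithelium with a wild type genotype, kept dividing by telomerase. All were held in 0.1% serum for 48 h before chromatin immunoprecipitation and sequencing (ChIP-seq) of Pol II, through the N-terminal part of its subunit RPB1, or of TOP2A. The Pol II control list stood for 3 libraries of cells given the vehicle DMSO for 30 min and 3 libraries of untreated cells. Merbarone, which blocks the catalytic cycle of topoisomerase II, was given at 200 uM for 30 min (3 libraries) or 1 h (2 libraries). TOP2A was mapped in untreated cells only (2 libraries), and 3 IgG libraries were not analysed here. No vehicle library matched the 1 h time. Marker genes of retinal pigment epithelium were not checked here, since their hg19 positions were not at hand.

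A peak is an interval called as bound, and cover is the share of a window, in percent, that lies under peaks. All libraries of a condition shared 1 list, so no value has a spread between replicates and no difference could be tested. Read depth was unknown and peaks carried no height, so 0% cover means that no peak was called, not that Pol II was absent. In bulk chromatin a site bound in fewer cells and a site bound less in each cell cannot be told apart. The lists also differed as wholes: the total length under Pol II peaks was 42.8 Mb for control, 47.7 Mb for 30 min and 58.3 Mb for 1 h. The smallest peak was 136, 150 and 159 bp wide in these lists, and peaks stood no closer than 1, 1 and 38 bp. Each member is therefore read beside the 33506 tiles of 10 kb that held a Pol II peak in any list.

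NF-kappaB is a family of dimeric transcription factors held in the cytoplasm by inhibitors of the IkappaB family. When a signal such as TNF destroys the inhibitor, the dimers enter the nucleus and bind kappaB sites in promoters and enhancers of cytokine, chemokine and adhesion genes. Among the targets are their own inhibitors, which close the loop. In many cells Pol II already sits near the start of such genes before any signal, so the response can begin by releasing it.

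Promoters are shown because kappaB sites are where NF-kappaB binds its targets, and because these genes include some with and some without Pol II peaks. RefSeq promoters of GRCh38.p14 were at hand for 7 of the 9 members; those of CCL2 and LIF are named only. Each run below is the 200 bases before the RefSeq start, 5′ to 3′ along the gene's strand. They lie at chr14:35404750-35404949 (minus strand) for NFKBIA, chr6:137867059-137867258 (plus) for TNFAIP3 and chr4:73740369-73740568 (plus) for CXCL8. Those of CXCL1, IL6, ICAM1 and IRF1 lie at chr4:73869193-73869392 (plus), chr7:22727000-22727199 (plus), chr19:10270920-10271119 (plus) and chr5:132490774-132490973 (minus). These positions are of GRCh38 and every peak position is of hg19. Capitals mark a match, on either strand, to GGNNNTTCC or to the longer kappaB consensus GGGRNNYYCC. R is A or G, Y is C or T, and N is any base. Neither form contains the other, and matches of both can overlap:
NFKBIA: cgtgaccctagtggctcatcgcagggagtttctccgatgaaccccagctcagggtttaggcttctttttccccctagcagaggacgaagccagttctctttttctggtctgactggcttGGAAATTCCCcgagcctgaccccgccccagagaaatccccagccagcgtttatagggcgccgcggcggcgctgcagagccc
TNFAIP3: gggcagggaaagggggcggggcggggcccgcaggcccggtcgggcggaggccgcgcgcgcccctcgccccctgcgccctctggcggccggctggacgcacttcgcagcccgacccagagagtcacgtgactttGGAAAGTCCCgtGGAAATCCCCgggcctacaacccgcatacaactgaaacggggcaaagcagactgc
CXCL8: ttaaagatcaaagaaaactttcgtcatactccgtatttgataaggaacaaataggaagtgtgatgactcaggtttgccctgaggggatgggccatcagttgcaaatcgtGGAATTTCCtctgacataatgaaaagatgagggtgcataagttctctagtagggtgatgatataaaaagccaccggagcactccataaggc
CXCL1: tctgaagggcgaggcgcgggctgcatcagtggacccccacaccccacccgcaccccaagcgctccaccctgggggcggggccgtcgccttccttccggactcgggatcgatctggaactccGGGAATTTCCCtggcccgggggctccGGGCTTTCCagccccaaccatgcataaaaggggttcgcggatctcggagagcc
IL6: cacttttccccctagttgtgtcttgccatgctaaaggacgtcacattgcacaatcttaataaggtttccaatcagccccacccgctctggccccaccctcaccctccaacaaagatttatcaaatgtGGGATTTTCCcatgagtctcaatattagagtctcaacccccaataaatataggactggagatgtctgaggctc
ICAM1: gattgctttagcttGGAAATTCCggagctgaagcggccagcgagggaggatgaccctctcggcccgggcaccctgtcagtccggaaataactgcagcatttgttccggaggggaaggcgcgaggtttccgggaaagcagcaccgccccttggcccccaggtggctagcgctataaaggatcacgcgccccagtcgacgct
IRF1: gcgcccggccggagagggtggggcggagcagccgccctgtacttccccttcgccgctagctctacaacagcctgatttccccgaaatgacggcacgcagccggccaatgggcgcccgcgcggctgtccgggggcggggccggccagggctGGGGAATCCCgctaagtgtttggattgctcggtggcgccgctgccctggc

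Every promoter shown held a match. GGNNNTTCC or its reverse complement stood in 6 of the 7, at 81 to 73 bases before the start in NFKBIA, 72 to 64 in IL6 and 186 to 178 in ICAM1. IRF1 held the consensus alone, at 50 to 41 bases before its start. These distances count from the RefSeq start in GRCh38, and peak distances from the start of the hg19 span. Only span lengths were compared between these, so the distances may not be on one scale. Over all 35116 promoters of the table, 14.3% held GGNNNTTCC in the same 200 bases, 8.14% held the consensus and 18.4% held either. CXCL8, CXCL1 and ICAM1, which had no Pol II peak, held matches, and so did NFKBIA, TNFAIP3, IL6 and IRF1, which had a Pol II peak at the start. A match is a run of letters and was not tested as a bound site.

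Pol II cover of the windows spanned nearly the whole range. In control it was 85.5% at LIF, 73.5% at IRF1, 50.9% at NFKBIA, 30.1% at CCL2, 18.3% at IL6 and 2.39% at TNFAIP3. At 30 min it was 89.1% at LIF, 81.0% at IRF1, 59.4% at NFKBIA, 29.1% at CCL2, 15.9% at IL6 and 3.00% at TNFAIP3. At 1 h the shares were 96.0%, 86.1%, 71.0%, 38.6%, 23.8% and 3.38% in the same order of genes, so the order held over the 3 lists. The start of each of the 6 genes lay inside a Pol II peak in control, after 30 min and at 1 h. Past the gene end, Pol II peaks stood at 5 of them in each Pol II list, all but TNFAIP3.

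**Figure D1:**
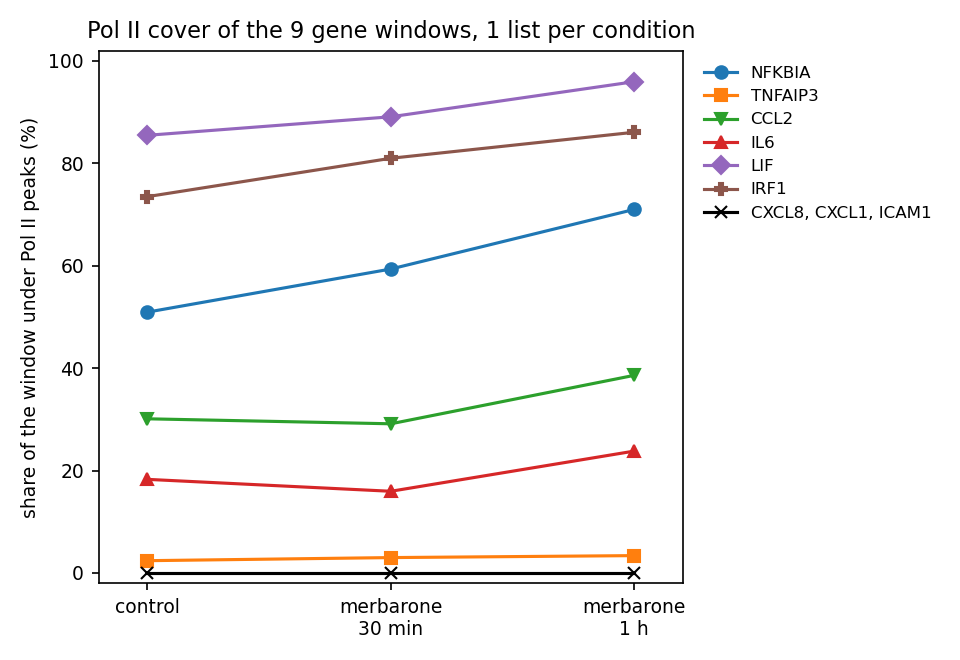
Share of each gene window under Pol II peaks, in percent, in the control, 30 min and 1 h lists; each point is 1 list and has no error. LIF lies highest at 85.5%, 89.1% and 96.0%, and CXCL8, CXCL1 and ICAM1 lie at 0 in every list.

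At 1 h, 3 of the 9 windows were covered more than in control by at least 10 percentage points, against 16.7% of the tiles. These were NFKBIA (20.1 points), IRF1 (12.6) and LIF (10.5). None was covered less by that much, against 1.15% of tiles. CCL2, IL6 and TNFAIP3 differed by 8.49, 5.52 and 0.99 points. The median was 5.52 points over all 9 members, 3 of them at 0 with no peak, and 9.48 over the 6 with one. Over the tiles, each of which had a peak, it was 1.93 points. Tiles with much Pol II cover changed more often. Of those with at least 50% control cover, where NFKBIA, LIF and IRF1 stood, 36.5% passed 10 points at 1 h. Their median was 6.16 and their 90th percentile 23.0 points. NFKBIA thus lay under the 90th percentile of its own class of tiles.

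At 30 min none of the 9 windows had passed 10 points in either direction, against 6.85% of tiles covered more and 1.62% covered less. NFKBIA (8.42 points) and IRF1 (7.49) stood highest, LIF and TNFAIP3 differed by 3.62 and 0.61 points, and IL6 and CCL2 by -2.33 and -0.97. From 30 min to 1 h, NFKBIA alone passed 10 points, at 11.6, against 12.4% of tiles covered more and 2.27% less. Both merbarone comparisons share the control list.

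The count depends on the window. Over the gene span alone, NFKBIA, IL6, CCL2 and IRF1 passed 10 points at 1 h and LIF did not, at 1.65 points, since 98.3% of its span was already covered in control. With peaks within 1 kb joined, IRF1 fell short at 1.31 points, and IL6 passed at 16.1. Within 2 kb of the start LIF fell short at 4.62 points, and CCL2 passed at 12.7. No share of tiles was computed for these windows or for joined peaks. The share of tiles past 10 points at 1 h depends on size, at 25.3% with 5 kb tiles and 16.7% with 10 kb tiles.

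**Figure D2:**
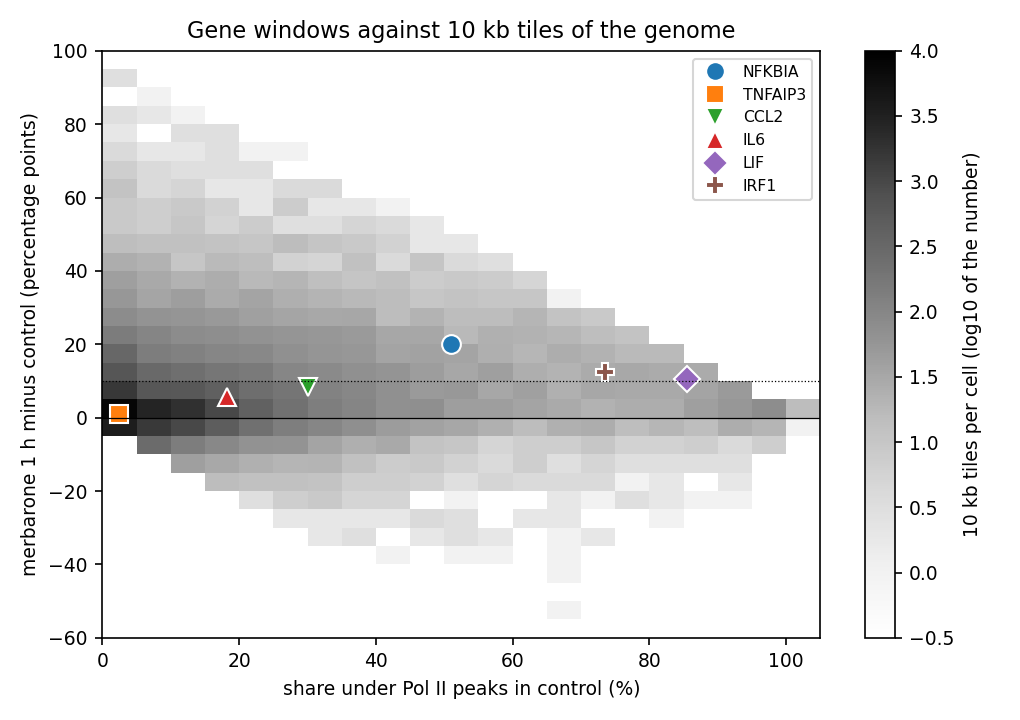
Control cover (x axis, percent) against cover at 1 h minus control (y axis, percentage points) for the 6 gene windows with peaks (coloured) and for 10 kb tiles (grey, darker for more tiles on a log10 scale); the dotted line stands at 10 points. NFKBIA, IRF1 and LIF lie above that line, at 20.1, 12.6 and 10.5 points, within the cloud of tiles of like control cover.

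The feedback inhibitors NFKBIA and TNFAIP3 stood far apart in cover, at 50.9% and 2.39% of their windows in control and 71.0% and 3.38% at 1 h. NFKBIA encodes IkappaB alpha, which masks NF-kappaB in the cytoplasm and is resynthesised under its control. Its span runs on chromosome 14 from 35870716 to 35873960 (minus strand). Over the 3245 bp of the span, Pol II cover was 76.5% in control, 92.3% after 30 min and 100% at 1 h. In control 5 gaps were left in the span, the longest of 363 bp, and at 30 min 3 gaps of at most 154 bp. At 1 h a single peak of 6279 bp, from 549 bp before the start to 2485 bp past the end, held the whole gene, where control had 8 peaks with 5219 bp. Every base covered in control was covered at 1 h, and 2056 bp were added.

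Cover at NFKBIA was higher at 1 h than in control in each part of the window. The 5 kb past the end was covered over 44.9% in control, 51.0% after 30 min and 66.0% at 1 h, 21.1 points more at 1 h than in control. The span had 23.5 points more, which filled it, and the 2 kb before the start 11.9 points more. The chain of peaks no more than 1 kb apart reached 2350 bp past the end in control and 4196 bp at 1 h. Of the 5 peaks at 1 h, 4 had no control partner: 1 of 181 bp before the start and 3 of 161, 334 and 320 bp past the end. All 4 were narrower than the median peak at 1 h, of 347 bp. At 30 min a single peak, at 6903 to 7111 bp past the start, had no partner. NFKBIA passed 10 points at 1 h under each of the 7 other ways of setting limits or windows, at 10.9 to 26.1 points.

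The only TOP2A peak in the 9 windows lay in NFKBIA, against 3.95% of tiles with a TOP2A peak and 10.3% of those with at least 50% control cover. It spanned 75 bp on chromosome 14 from 35873037 to 35873111, at 849 to 923 bp past the start and inside the gene. It sat within the Pol II peak over the start in all 3 Pol II lists, which reached 1479 bp past the start in control, 1902 bp after 30 min and 5729 bp at 1 h. The nearest TOP2A peak in either direction was also read at the other members with Pol II peaks. It stood 6553 bp from the start at IRF1, 389944 bp at LIF and over 1 Mb away at TNFAIP3, CCL2 and IL6. TOP2A peaks in this list were few and short, with a median of 87 bp, so sites below its threshold cannot be told apart from sites without TOP2A.

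TNFAIP3 encodes A20, a ubiquitin-editing enzyme that shuts off signalling upstream of NF-kappaB. Its span of 16127 bp runs on chromosome 6 from 138188325 to 138204451 (plus strand). Pol II was called at and just before its start and nowhere else in the window. The peak over the start reached 328 bp past it in control, 317 bp after 30 min and 360 bp at 1 h. A second peak stood before the start, at 356 to 201 bp in control, 485 to 179 bp after 30 min and 463 to 222 bp at 1 h. The remaining 15798 bp of the span in control, and 15766 bp at 1 h, held no peak, and neither did the 5 kb past the end. The next peak downstream stood 239823 bp from the start in control. No peak was called in the gene body past these edges at either merbarone time. RefSeq lists the noncoding gene WAKMAR2 as overlapping TNFAIP3, and peaks carry no strand. Pol II called where both lie, which may include the start, cannot be assigned to one of them.

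**Figure D3:**
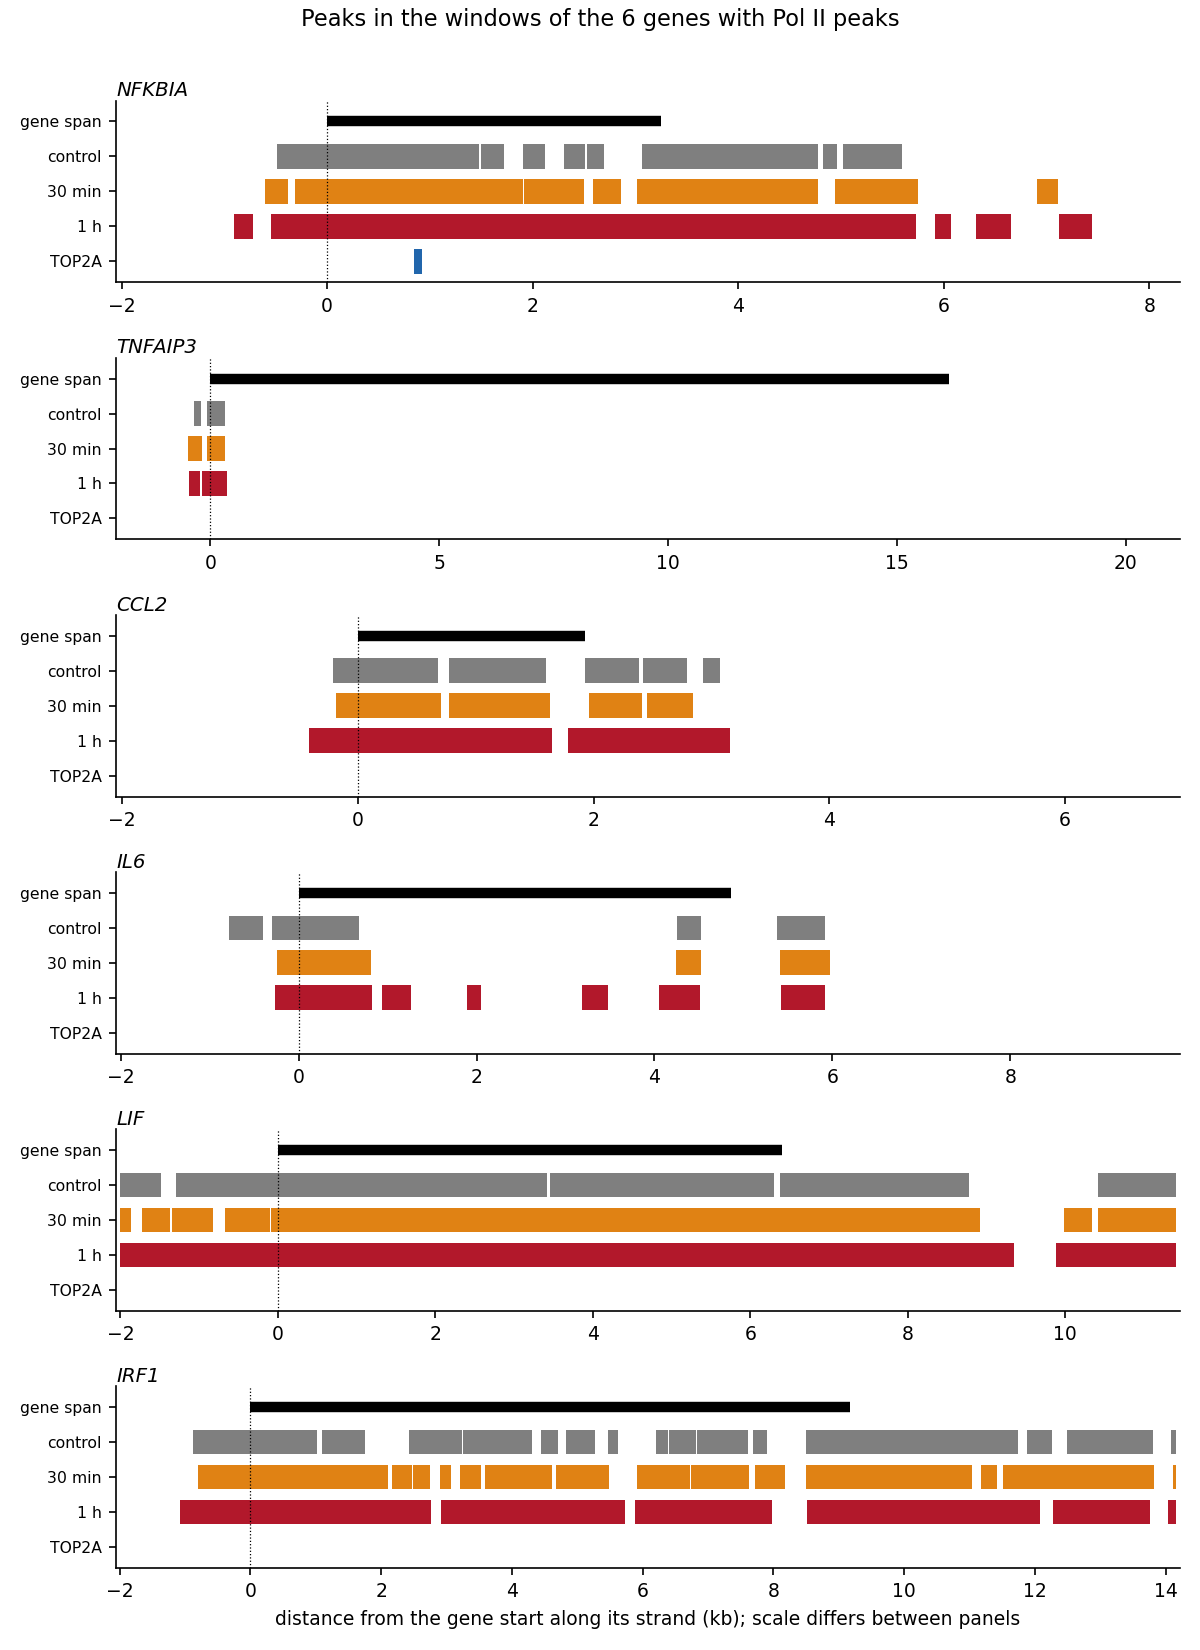
Peaks by distance from the gene start (x axis, kb along the strand, cut at the window edges) for 6 genes with Pol II peaks. Rows show the gene span (black), Pol II in control (grey), at 30 min (orange) and at 1 h (red), and TOP2A (blue). NFKBIA is under 1 peak of 6279 bp at 1 h, TNFAIP3 has peaks only at and just before its start, and IL6 gains 3 separate peaks in its body at 1 h.

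Among the chemokines, CCL2 had Pol II peaks and CXCL8 and CXCL1 had none called. CCL2 attracts monocytes, and CXCL8 (interleukin 8) and CXCL1 attract neutrophils. CCL2 lies on chromosome 17 from 32582296 to 32584220 (plus strand). Its short span of 1925 bp was covered over 77.5% in control, 81.3% after 30 min and 93.2% at 1 h. The whole window held 6 peaks in control, 4 after 30 min and 2 at 1 h. The peak over the start ran from 213 bp before to 675 bp past it in control, from 187 to 704 bp after 30 min and from 417 to 1650 bp at 1 h. At 1 h no covered base of control was missing and 758 bp were added. The last peak ended 1148 bp past the gene end in control, 921 bp after 30 min and 1233 bp at 1 h, so Pol II extended past the end at each time.

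CCL2 stood far from other Pol II peaks. The nearest Pol II peak before its window lay 1326540 bp from the start in control and the nearest past the window 705674 bp. These distances were 1326700 and 705236 bp after 30 min, and 1326623 and 705418 bp at 1 h.

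CXCL8 (chromosome 4, 74606223 to 74609433, plus strand) and CXCL1 (chromosome 4, 74735109 to 74737019, plus strand) lie in one cluster of chemokine genes. No Pol II or TOP2A peak was called within 50 kb of either start. The nearest Pol II peak past CXCL1 stood 169234 bp from its start in control, 169239 bp after 30 min and 169203 bp at 1 h. Before CXCL8 it stood at 480675, 480595 and 420363 bp. No peak thus lay between both genes in any list.

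The cytokines IL6 and LIF, which signal through receptors that share the subunit gp130, differed in Pol II cover. IL6 lies on chromosome 7 from 22766766 to 22771621 (plus strand). Its 4856 bp span was covered over 19.6% in control, 22.3% after 30 min and 42.4% at 1 h. The peak over the start ran from 295 bp before to 677 bp past it in control, from 245 to 807 bp after 30 min and from 262 to 824 bp at 1 h. Near the gene end a peak of 272 bp in control, 273 bp after 30 min and 467 bp at 1 h stayed in place, as did 1 past the end, of 536, 565 and 500 bp.

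At 1 h, 3 peaks were called in the body of IL6 that had no partner in control or at 30 min. They measured 324, 159 and 285 bp, at 934 to 1257, 1893 to 2051 and 3187 to 3471 bp past the start. All 3 were narrower than the median peak at 1 h, of 347 bp. That of 159 bp had the smallest width in the 1 h list, and only that of 324 bp reached 300 bp. The longest stretch of the span with no peak was 3570 bp in control, 3437 bp after 30 min and 1135 bp at 1 h. In the other direction, a control peak of 386 bp, at 788 to 403 bp before the start, overlapped no peak at 30 min or 1 h. The 2 kb before the start was thus covered over 34.1% in control, 12.3% after 30 min and 13.1% at 1 h, while the span was covered more. RefSeq lists the noncoding gene IL6-AS1 as overlapping IL6. Peaks called where both lie, which may include the start, cannot be assigned to one of them. The nearest Pol II peak before the window stood 143558 bp from the start in control.

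LIF (chromosome 22, 30636436 to 30642840, minus strand) had the largest share of its window under Pol II peaks in each list, though IRF1, with a longer window, had more bp under peaks (11882 bp against 11459 bp at LIF in control). In control 3 peaks held 98.3% of the span and left 106 bp open, and after 30 min and 1 h the whole span was covered. At 30 min a peak of 9005 bp ran from 88 bp before the start to 2512 bp past the end. At 1 h a peak of 12503 bp, on chromosome 22 from 30633495 to 30645997, ran from 3157 bp before the start to 2941 bp past the end. It was number 105 by width among the 81816 peaks at 1 h, and 7 control peaks with 11534 bp lay under it. The 5 kb past the end was covered over 66.9% in control, 76.9% after 30 min and 89.2% at 1 h, 22.3 points more at 1 h than in control, while the span had only 106 bp left to fill. Before the start the order differed, with 90.8% in control, 84.6% after 30 min and 100% at 1 h. RefSeq places LIF-AS1 and LIF-AS2 over LIF, and the lists carry no strand.

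**Figure D4:**
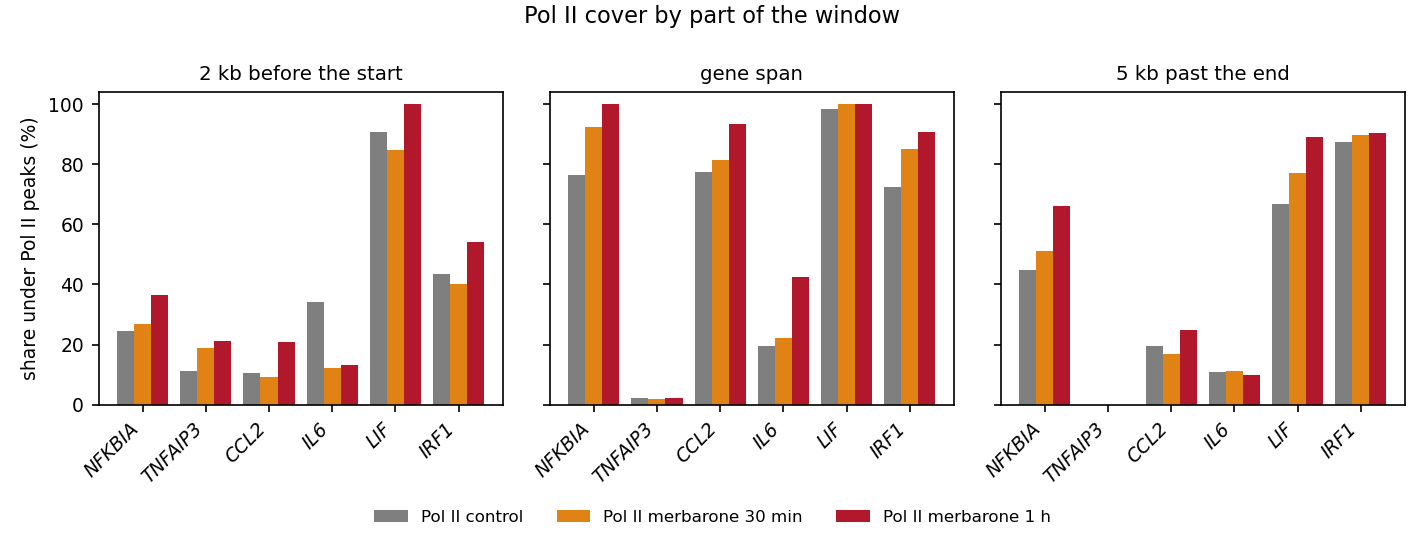
Share under Pol II peaks (bars, percent, from 0) in the 2 kb before the start, the gene span and the 5 kb past the end, for 6 genes in control (grey), at 30 min (orange) and at 1 h (red); each bar is 1 list and has no error. In the span NFKBIA stands at 76.5%, 92.3% and 100%, and before the start IL6 stands at 34.1%, 12.3% and 13.1%.

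ICAM1 encodes a surface protein that leukocytes bind through integrins. Its span on chromosome 19 from 10381517 to 10397291 (plus strand) held no peak of any list. The flanks held none either, and RefSeq places ICAM4, ICAM4-AS1, ICAM5 and LIMASI in or over this window. Its surroundings were not empty: within 50 kb of its start 8 Pol II peaks were called in control, 12 after 30 min and 9 at 1 h. The nearest stood 9978 bp before the start in control, 9961 bp after 30 min and 10234 bp at 1 h.

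IRF1 is a transcription factor of the interferon response whose gene is induced by both interferon and NF-kappaB. It lies on chromosome 5 from 131817301 to 131826465 (minus strand), and its RefSeq span had the same length. Pol II covered 72.5% of the span in control, 85.1% after 30 min and 90.7% at 1 h. Uncovered bases of the span numbered 2517 in 15 gaps in control, 1366 in 10 gaps after 30 min and 856 in 3 gaps at 1 h. The peak over the start grew in width over the 3 lists, at 1889, 2910 and 3844 bp, and its far edge stood 1017, 2106 and 2760 bp past the start. The 5 kb past the end was covered to a like share in each list, at 87.3% in control, 89.8% after 30 min and 90.5% at 1 h. At 1 h the span of IRF1 held 1661 bp more than in control and the 5 kb past the end 160 bp more, where little was left uncovered in control.

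Fewer, wider peaks at 1 h were common to several members. The window of IRF1 held 20 peaks in control, 15 after 30 min and 6 at 1 h, that of LIF 6, 7 and 2, that of NFKBIA 8, 8 and 5, and that of CCL2 6, 4 and 2. More cover in fewer peaks at 1 h than in control was thus seen at 4 of the 5 members with at least 10% control cover, against 36.6% of such tiles. The 1 h list has no peaks closer than 38 bp, which lowers its count of peaks. When gaps of up to 37 bp were closed and peaks narrower than 159 bp dropped in every Pol II list, NFKBIA had 5, 6 and 5 peaks, and 3 members kept the pattern (CCL2, LIF and IRF1), against 20.8% of tiles. Neither share was computed for tiles with at least 50% control cover, the class of NFKBIA, LIF and IRF1.

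Most Pol II peaks of the members had a partner in the other lists. Of 39 peaks at 30 min in the 9 windows, 2 (5.13%) overlapped no control peak, 1 at NFKBIA and 1 of 350 bp past the end of LIF, against 34.1% of all peaks at 30 min. At 1 h 7 of 23 did (30.4%), against 44.1% of all, and all 7 lay at NFKBIA and IL6. In the other direction 2 of 46 control peaks (4.35%) had no partner at 30 min, against 26.1% of all, and 2 had none at 1 h, against 22.3%. Peaks of 1 window share their gene, and wide peaks find partners more easily, so these shares are a description. The control peak before IL6 was among those without a partner at both times, with 1 of CCL2 after 30 min and 1 of IRF1 at 1 h.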

How the data were processed

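Per the submitters' processing notes, the authors worked on hg19 with Bowtie 1.2.0, MACS2 and deepTools 2.4.1. Each deposited list gives peak starts and ends in bp; the sources used here do not give how libraries were combined, the threshold or the background library.

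Starts were read as 0-based, and printed positions are 1-based. Gene spans are those given with the choice of genes; in a RefSeq table of GRCh38.p14, used for names, neighbours and promoters only, 1 of the 9 spans had the same length and the others differed by up to 837 bp. The genes, windows and limits were chosen with earlier results of these data known, and all 9 are named. Other NF-kappaB genes were planned for an hg19 annotation and were not analysed here.

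Cover of each window and of 10 kb tiles was compared between lists, with 10 percentage points as the threshold and 1 bp as the overlap. With 1 list per condition no test was run. Alternatives joined peaks up to 37 bp apart and dropped those under 159 bp (like limits), shortened peaks by each list's excess smallest width, dropped peaks narrower than 300 bp, closed gaps of up to 1 kb, or changed window, threshold, overlap or tile. Tiles with at least 50% control cover, and peak numbers with like limits, were added after seeing the data. Cover, overlap, joining and tile counts were tested on simulated data, and all 5 checks gave the known answer, 3 of them against bedtools 2.31.1. Python 3.11.15 was used, with pandas 2.3.3, numpy 2.4.6, matplotlib 3.10.9 and scipy 1.17.1.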

Additional observations from a re-analysis of the deposited data

How the results depend on the processing

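Like limits, shortened peaks and 5 kb on either side left every count of members past 10 points as reported, though with 5 kb on either side the member past 10 points from 30 min to 1 h was LIF and not NFKBIA. Members covered more at 30 min than in control numbered 2 (NFKBIA and IRF1), not 0, with peaks of at least 300 bp, with the gene span alone and with 5 points as the threshold. At 1 h against control 5 members passed 5 points and 1 passed 20 points. Shares of tiles past a threshold were computed at 10 points only, so counts at 5 or 20 points have no tile share beside them. With peaks of at least 300 bp 4 passed 10 points, CCL2 among them (12.3), and within 2 kb of the start CCL2 passed in place of LIF. No tile share was computed for peaks of at least 300 bp, at 30 min or at 1 h. That limit was uneven between lists. It kept 35659 of 87911 peaks in control, 39888 of 85990 at 30 min and 46635 of 81816 at 1 h. From 30 min to 1 h, 2 passed with peaks joined within 1 kb (NFKBIA and IL6). With the gene span alone and within 2 kb of the start 2 also passed, but these were IL6 and CCL2 and not NFKBIA. At the other thresholds, 5 passed 5 points and 0 passed 20 points. No member was covered less by the threshold in any of these. Peaks at 30 min with no control partner numbered 4 with peaks of at least 300 bp, 1 with peaks joined within 1 kb and 5 when 50% of the peak had to overlap. At 1 h they numbered 4 and 0 under the first 2 of these. TOP2A lay at NFKBIA alone in each window tried.

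At 1 h the 6 genes with peaks were covered more than in control, by any amount, under all 7 alternatives of limits and windows. At 30 min this held for NFKBIA alone, and the sign of the other 5 turned in at least 1 of them. The share of tiles with any gain was not computed. The median tile of 10 kb also gained, by 1.93 points at 1 h and 0.28 at 30 min, so a gain alone does not set these genes apart. Other shares count only tiles that gained 10 points or more from control to 1 h. They were 25.3% with 5 kb tiles, 10.5% with 20 kb tiles and 26.6% among tiles with at least 10% control cover. Because of that threshold, they cannot be set beside the 6 genes with a gain of any amount. No paired analysis was possible because each condition has 1 list for all its libraries, and for the same reason no library could be left out. Unknown depth limits every comparison between lists.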
